A study of Mus musculus with 6 samples.

Results

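The cytosolic ribosomal protein genes are described here in retinas of *Mll1KO* and WT mice at P14. Members were taken by gene name, as every listed gene with an *Rpl* or *Rps* number, *Rplp0*, *Rplp1*, *Rplp2* or *Rpsa*, without pseudogene names, and 53 of the 11339 genes met this rule. Of these, 22 encode proteins of the small (40S) subunit and 31 encode proteins of the large (60S) subunit. In all, 51 are canonical subunit genes, out of 77 canonical genes with such names in the mouse annotation, and *Rps4l* and *Rpl7l1* are paralogs. Among the genes not listed are *Rpl10*, *Rpl11*, *Rpl24*, *Rpl38*, *Rps6*, *Rps27a* and *Rpsa*, which were not analysed here.

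The study asked what the histone methyltransferase MLL1 does in the developing retina, and sequenced mRNA from 3 *Mll1KO* and 3 WT samples, each pooled from 2 retinas. *Mll1KO* mice have the genotype MLL1 fl/fl with the *Chx10-Cre* transgene, which drives Cre in retinal progenitor cells, so that cells of other origin keep the gene. The controls are labelled wild type, and Cre-positive mice without floxed alleles are not among these samples, so that in these values the deletion and the transgene cannot be told apart. Both groups were of strain C57Bl6/J and aged P14, around eye opening, and the study used animals of both sexes.

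The ribosome translates mRNA into protein, the 40S subunit decoding the message and the 60S subunit forming the peptide bond. Each ribosome takes about one copy of most ribosomal proteins, and their genes are transcribed in every cell of the retina. Their mRNAs typically begin with a cytosine followed by a run of pyrimidines, the 5′ terminal oligopyrimidine (TOP) motif, through which mTORC1 and LARP1 set their translation together.

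The deposited values were reads per kilobase of exon, scaled to the library total (RPKM). They could be turned back into whole reads, which gave library totals of 23836033, 19777205 and 19323512 reads for WT a, b and c and of 23348923, 19855963 and 17961097 reads for *Mll1KO* a, b and c. The 53 genes held 0.244%, 0.254% and 0.262% of the reads in WT and 0.245%, 0.243% and 0.244% in *Mll1KO*. The lowest count of any member in any library was 103 reads, for *Rpl5*, and the highest was 6578 reads, for *Rpl8*. Differences were tested with limma on log2(RPKM + 1) over all 11339 genes, and a gene is called where its Benjamini-Hochberg adjusted p is under 0.05. This scale understates changes of genes with a low RPKM. The p-values set the difference between genotypes against the spread within them over these 6 samples, with the variance moderated over all genes.

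*Kmt2a*, as the deleted gene is now called (ENSMUSG00000002028, chromosome 9 from 44803355 to 44881296 in GRCm38, minus strand), had an RPKM of 36.1, 36.9 and 34.6 in WT a, b and c and of 22.9, 20.4 and 22.3 in *Mll1KO* a, b and c. The genotypes were far apart, with *Mll1KO* lower (log2 fold change -0.69, SE 0.050, limma adjusted p = 2.77e-05). The exons flanked by *LoxP* sites are only part of this gene, so that its RPKM also counts exons that are not deleted. Reads of single exons were not measured here.

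One library stood apart in the ribosomal protein genes. In WT a, 14 of the 53 genes (26.4%) lay more than 0.25 on the log2 scale from the mean of the other WT libraries, against 2.84% of all genes in that library. In the 5 other libraries this count was between 0 and 3. The SD of these deviations over the 53 genes was 0.200 in WT a, 0.130 and 0.131 in WT b and c, and between 0.104 and 0.114 in *Mll1KO*, while over all genes it was 0.106 in WT a. Results are therefore also given without WT a, an alternative that leaves out 1 library.

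As a set, the ribosomal protein genes showed small differences between genotypes. Their median log2 fold change was -0.072 (interquartile range -0.13 to 0.002), against -0.030 over all genes, and 39 of 53 were below 0. In all, 6 genes were called, or 11.3% of the members against 23.3% of all genes. All 6 were lower in *Mll1KO*, where 14.5% of all genes were called lower, and 4 of them, *Rpl29*, *Rplp0* and *Rps24* included, were called with TMM, RLE or upper-quartile factors. With limma 0 members were called higher, against 8.81% of all genes, with 1 member higher at an unadjusted p under 0.05 and 0 called higher by limma-voom on the recovered reads. The *Mll1KO* values lay entirely below the WT values in 16 members (30.2%), close to the 26.5% of all genes, and entirely above them in 0 members, against 14.6% of all genes.

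The spread of the changes was narrower than over all genes, but not particular to this set. The SD of the log2 fold change was 0.117 over the 53 genes and 0.196 over all genes, and the extremes were -0.31 for *Rpl29* and 0.23 for *Rpl39*. In the lists described below it was 0.104 for mitochondrial ribosomal proteins, 0.0978 for initiation and 0.103 for elongation factors. It was 0.0887 for ribosome biogenesis, 0.0754 for mTORC1 and TOP control, 0.131 for other TOP mRNAs and 0.164 for p53 and nucleolar stress. In all, 13 of 53 members (24.5%) lay more than 2 SE from the median of the set, against 39.5% of all genes from theirs. The 95% interval of the difference lay within 0.5 of 0 on the log2 scale for 51 of 53 members (96.2%), against 93.3% of all genes. The exceptions were *Rpl28* (-0.50 to 0.14) and *Rpl39* (-0.10 to 0.56), the first named after its values were seen. In bulk RNA, fewer cells of a type and less RNA per cell cannot be told apart, and a change of all RNA in the retina would not show in RPKM.

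Single libraries were also compared in pairs. Over the 53 genes, the SD of the log2 difference averaged 0.150 for the 6 pairs of libraries of the same genotype and 0.165 for the 9 pairs of different genotype. Over all genes these averages were 0.128 and 0.222. Without WT a, the averages for the members were 0.121 and 0.131. An SD leaves out a shift common to the genes. The median log2 difference of the 53 genes, *Mll1KO* minus WT, lay between -0.115 and -0.050 for WT b and c, and between -0.045 and -0.002 for WT a. Between libraries of 1 genotype it was at most 0.038 in size without WT a, while WT b and c were 0.083 and 0.115 above WT a. These differences between pairs were not tested.

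**Figure D1:**
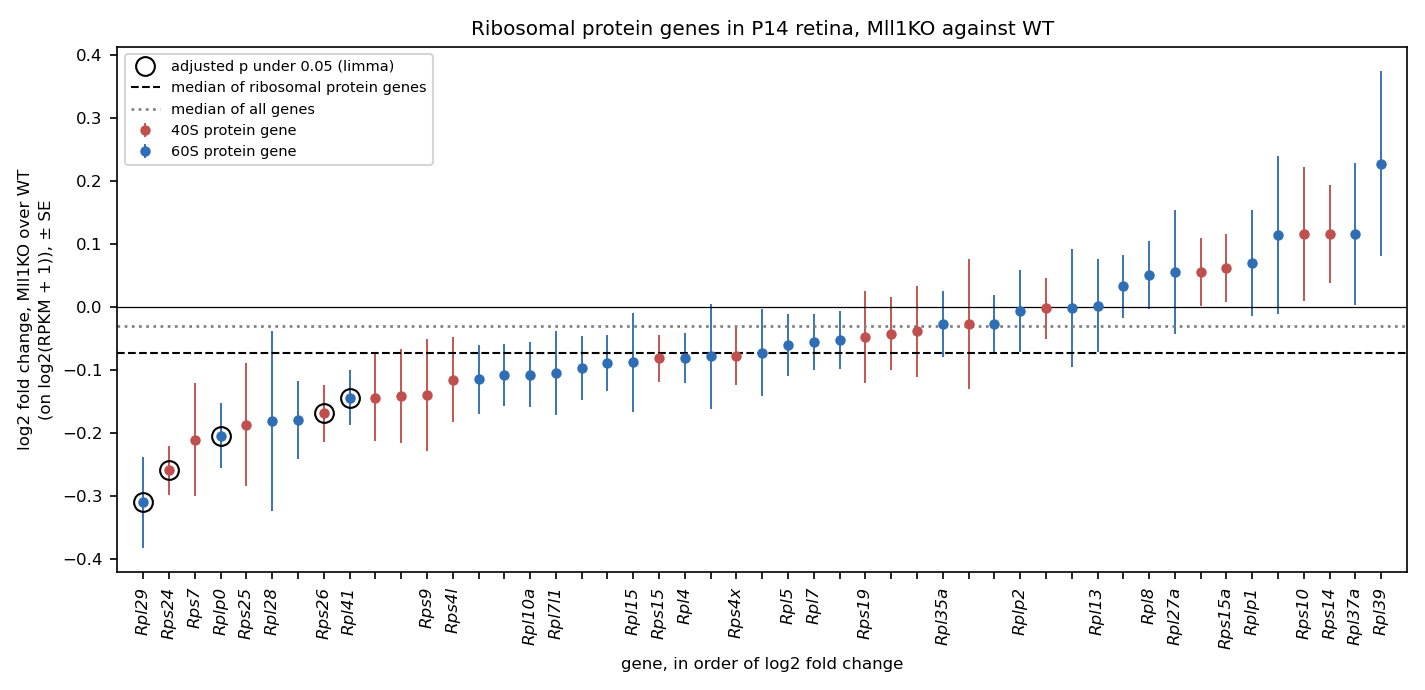
Log2 fold change of 49 of the 53 ribosomal protein genes, *Mll1KO* over WT on log2(RPKM + 1) with 3 samples per genotype (vertical axis), in order of that change (horizontal axis, with the genes described in the text named), with bars of 1 SE. Red points are 40S and blue points 60S protein genes, circles mark the 5 of these genes with a limma adjusted p under 0.05, all of them below 0, and lines show the medians of the set (-0.072) and of all genes (-0.030).

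The summed RPKM of the set was 2067, 2105 and 2184 in WT a, b and c and 2085, 2025 and 2025 in *Mll1KO* a, b and c. The WT mean was 2119 ± 59.6 (SD, n = 3) and the *Mll1KO* mean 2045 ± 34.7 (SD, n = 3), or 96.5% of WT, and the groups overlapped at *Mll1KO* a and WT a. For 40S genes the sums were 818 ± 17.5 (SD, n = 3) for WT and 757 ± 9.54 (SD, n = 3) for *Mll1KO* (92.5% of WT), without overlap between the genotypes. The 60S genes summed to 1301 ± 43.5 (SD, n = 3) and 1288 ± 42.9 (SD, n = 3), or 99.0% of WT, with overlap. The genes of highest RPKM weigh most in a sum. Gene by gene the medians of the subunits were close, with a log2 fold change of -0.080 for 40S and -0.060 for 60S. In each, 3 genes were called (13.6% and 9.68%, against 23.3% of all genes). Without WT a the medians were -0.079 and -0.077, and 5 and 3 genes were called, where 17.4% of all genes were called. The difference between the subunits was not tested.

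Among the called 40S genes were *Rps24* and *Rps26*. *Rps24* encodes eS24, a protein mutated in some families with Diamond-Blackfan anaemia, and had an RPKM of 41.5, 42.7 and 43.4 in WT and of 35.2, 34.7 and 36.2 in *Mll1KO*. The 3 *Mll1KO* samples lay close together and clearly below WT, at 83.2% of its mean (log2 fold change -0.26, SE 0.039, limma adjusted p = 0.00135). *Rps24* was called in all 14 alternative fits over all genes, and 80.9% of the 50-base stretches of its annotated transcript were found in no transcript of another gene. That transcript has 1613 bases, while its RPKM was counted over 840 bases.

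*Rps26*, which encodes eS26, a protein at the mRNA exit channel of the 40S subunit, had an RPKM of 115.3, 108.3 and 115.1 in WT and of 100.5, 96.0 and 104.5 in *Mll1KO*. The lowest WT and the highest *Mll1KO* value were close, without overlap (log2 fold change -0.17, SE 0.046, limma adjusted p = 0.0250). The adjusted p of *Rps26* was above the threshold with TMM, RLE or upper-quartile factors and without WT a, WT c or *Mll1KO* b, and ranged from 0.0237 to 0.0893 over all alternatives.

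Among 60S genes, *Rpl29*, *Rplp0* and *Rpl41* were called. *Rpl29*, which encodes eL29 on the surface of the subunit, lay at the lower end of the set, with an RPKM of 16.4, 13.5 and 13.8 in WT a, b and c and of 11.6, 10.9 and 12.03 in *Mll1KO*. WT a was the highest, and the groups did not overlap (log2 fold change -0.31, SE 0.072, limma adjusted p = 0.0133). It was called in all 14 alternatives, with a change of -0.23 without WT a. Only 33.2% of its 50-base stretches were unique to it, and 81 annotated pseudogenes shared some of the rest, so that its values are uncertain.

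*Rplp0* encodes uL10, the base of the stalk that recruits elongation factors, and had an RPKM of 76.7, 78.4 and 81.2 in WT and of 72.9, 68.5 and 63.6 in *Mll1KO*. All *Mll1KO* samples were lower, with *Mll1KO* a nearest to WT (log2 fold change -0.20, SE 0.052, limma adjusted p = 0.0194). The call was lost without WT b, WT c or *Mll1KO* c, with adjusted p from 0.00809 to 0.0719. The other stalk proteins did not share this, since *Rplp1* was at 305.7, 297.7 and 320.9 in WT and at 376.5, 305.7 and 293.5 in *Mll1KO*, which overlap (log2 fold change 0.070, limma adjusted p = 0.589). *Rplp2* was at 16.2, 17.2 and 19.0 in WT and at 18.6, 16.9 and 16.6 in *Mll1KO*, also with overlap (log2 fold change -0.006, limma adjusted p = 0.959). Differences between these 3 genes were not tested.

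*Rpl41*, which encodes the shortest protein of the ribosome, had an RPKM of 50.8, 55.1 and 52.8 in WT and of 47.3, 46.5 and 49.6 in *Mll1KO*. The groups did not overlap, with *Mll1KO* c close to WT a (log2 fold change -0.14, SE 0.044, limma adjusted p = 0.0417). This was the least stable call, kept in only 4 of 14 alternatives, with adjusted p from 0.0326 to 0.154.

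**Figure D2:**
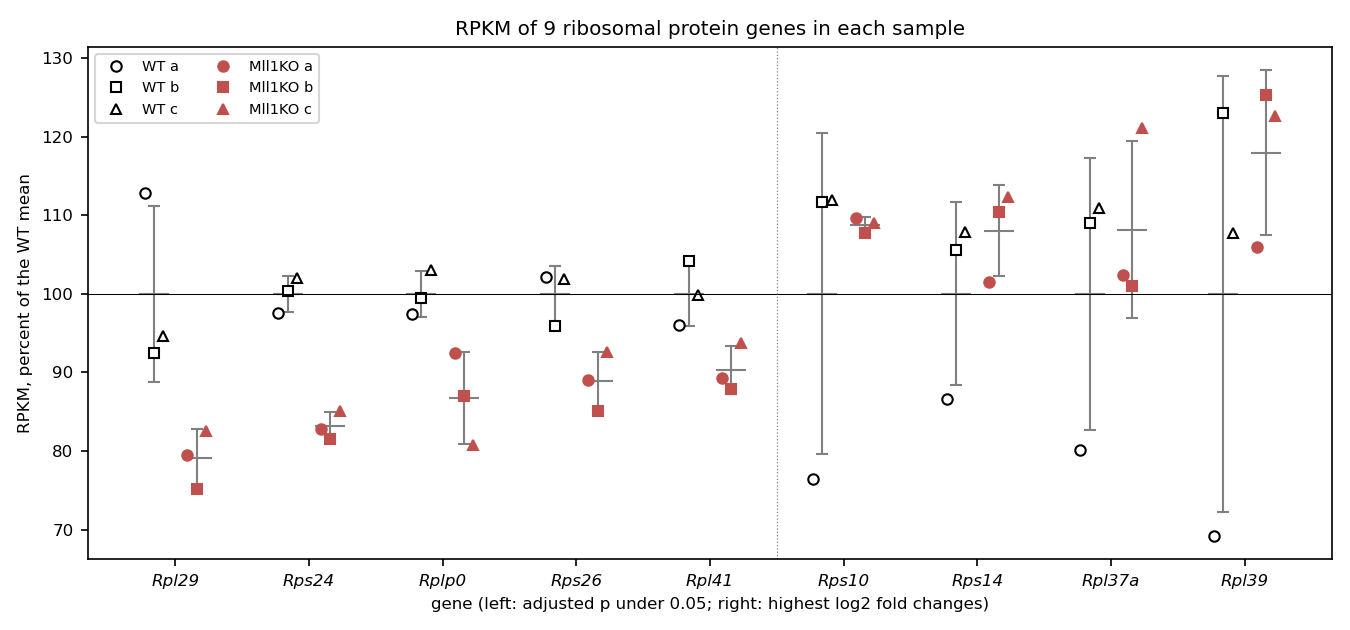
RPKM of 9 ribosomal protein genes in each sample as a percent of the WT mean of that gene (vertical axis), with WT as open and *Mll1KO* as red symbols, circles, squares and triangles for samples a, b and c, and grey marks for the mean and SD of 3 samples. On the left are 5 called genes and on the right 4 of those with the highest log2 fold change, where the WT a circle is the lowest WT symbol in each gene and the genotypes overlap.

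Among the members with the highest log2 fold change were *Rpl39*, *Rpl37a*, *Rps14* and *Rps10*, and none of these was called. *Rpl39*, whose protein lines the exit tunnel of the nascent chain, was at 3.57, 6.35 and 5.56 RPKM in WT a, b and c and at 5.47, 6.46 and 6.33 in *Mll1KO*. WT a was far below the other samples, and the change of 0.23 (SE 0.15, limma adjusted p = 0.293) was 0.03 without it. *Rps14*, which encodes uS11 and lies in the region lost in 5q- syndrome, was at 61.6, 75.04 and 76.7 in WT and at 72.1, 78.5 and 79.8 in *Mll1KO*, and its change of 0.12 (limma adjusted p = 0.316) was 0.02 without WT a. *Rps10* and *Rpl37a*, both at 0.12, were at -0.03 without WT a.

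WT a was picked for its deviation in these same genes, so that a smaller spread without it is in part built in. Without WT b or WT c the SD of the log2 fold change was 0.140 and 0.143. Without WT a the SD was 0.0957, the median was -0.078 against -0.040 over all genes, and 46 of 53 genes were below 0. The called genes were 8 (15.1% of the members, against 17.4% of all genes), all lower, where 10.8% of all genes were called lower. Of these, 5 were called with all libraries, since *Rps26* was lost and 3 genes, *Rps7* and *Rps9* included, were gained. *Rps7*, whose protein can bind MDM2, was at 11.4, 15.2 and 14.2 RPKM in WT a, b and c and at 10.8, 11.7 and 11.99 in *Mll1KO*, so that WT a alone reached into the *Mll1KO* range. Its log2 fold change was -0.21 (limma adjusted p = 0.120) with all libraries and -0.33 (limma adjusted p = 0.00847, up to 0.358 over the alternatives) without WT a. *Rps9* (uS4), named after its values were seen, had an adjusted p of 0.0136 by limma without WT a and of 0.284 with it, and of up to 0.676 over the alternatives. The part of WT a in these values cannot be told apart from that of genotype with 3 WT samples, and its source was not tested.

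Several members known for roles of their own did not pass the test. *Rpl5*, which with *Rpl11* and 5S rRNA forms a complex that binds MDM2, was at 1.51, 1.44 and 1.51 RPKM in WT and at 1.35, 1.34 and 1.46 in *Mll1KO* (log2 fold change -0.06, limma adjusted p = 0.408). *Rps19*, the gene most often mutated in Diamond-Blackfan anaemia, was at 2.27, 2.48 and 2.44 in WT and at 2.03, 2.19 and 2.67 in *Mll1KO*, with *Mll1KO* c above all WT samples (-0.05, limma adjusted p = 0.683). *Rps25*, needed for translation from some viral internal ribosome entry sites, was at 13.1, 15.1 and 11.8 in WT and at 10.1, 11.7 and 13.0 in *Mll1KO*, with overlap (-0.19, limma adjusted p = 0.195). *Rpl10a*, which encodes uL1 at the exit of spent tRNA, did not overlap between groups, at 19.4, 21.1 and 19.3 in WT and 18.7, 17.5 and 19.1 in *Mll1KO*, but was not called either (-0.11, limma adjusted p = 0.159).

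The paralogs were measured beside their parent genes. *Rps4x*, the X-linked eS4 gene, had an RPKM of 8.93, 8.93 and 8.95 in WT and of 8.53, 8.55 and 8.16 in *Mll1KO* (log2 fold change -0.08, limma adjusted p = 0.255). Its intronless copy *Rps4l* was at 52.9, 43.4 and 46.8 in WT and at 46.1, 43.7 and 41.8 in *Mll1KO* (-0.12, limma adjusted p = 0.25). *Rps4l* thus stood above *Rps4x* per length in every sample, while 27.8% of the 50-base stretches of *Rps4x* and 85.1% of those of *Rps4l* were unique. *Rpl7l1* (-0.11) and *Rpl7* (-0.06), at a mean of 11.9 and 17.7 RPKM over all samples, were not called (limma adjusted p = 0.287 and 0.396).

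The X-linked members were *Rps4x* and *Rpl39*. *Xist*, the RNA that coats the inactive X chromosome of female cells, was at 71.7, 75.8 and 72.5 RPKM in WT and at 129.6, 0.590 and 127.7 in *Mll1KO* a, b and c. The WT samples were alike and *Mll1KO* b was almost without *Xist*, so that the mix of sexes differed between samples. *Mll1KO* b was the highest of the *Mll1KO* samples in both *Rps4x* and *Rpl39*, close to the next sample. The part of sex in their values was not tested.

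Of the ribosomal proteins whose genes have other names, *Rack1*, a scaffold on the head of the 40S subunit, was at 40.5, 42.6 and 45.0 RPKM in WT and at 40.7, 38.0 and 38.5 in *Mll1KO*, overlapping only at *Mll1KO* a and WT a (log2 fold change -0.12, limma adjusted p = 0.0896). It was called lower without WT a only (limma adjusted p = 0.0480, up to 0.2505 over the alternatives). *Fau* was not analysed here.

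The levels of the members ranged widely, although the ribosome takes about one copy of most proteins. The highest mean RPKM over the 6 samples were those of *Rpl8* (322.0), *Rplp1* (316.6), *Rps15* (148.7), *Rpl4* (147.0) and *Rps26* (106.6). *Rpl8* encodes uL2, which lies close to the peptidyl transferase centre, *Rpl4* encodes uL4 at the exit tunnel, and *Rps15* encodes uS19 of the 40S head. The lowest were *Rpl5* (1.44), *Rps19* (2.35), *Rpl13* (2.54), *Rpl35a* (3.26) and *Rpl27a* (3.28). *Rpl8* ranged from 294.4 to 335.7 RPKM and overlapped between genotypes (log2 fold change 0.05, limma adjusted p = 0.544), and *Rps15* (-0.08) and *Rpl4* (-0.08) did not overlap but were not called (limma adjusted p = 0.140 and 0.167). *Rpl13*, *Rpl35a* and *Rpl27a* were at 0.002, -0.03 and 0.06 (limma adjusted p = 0.985, 0.754 and 0.727).

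Many of these genes have near-identical copies in the genome. Of the 53 genes, 52 shared 50-base stretches, the length of a read, with at least 1 annotated pseudogene. The median share of stretches found in no transcript of another gene was 61.0%, and the lowest was 6.16%, in *Rpl5*. In the 32 ribosomal protein genes of the annotation that are not listed it was 32.2%, and in 78 mitochondrial ribosomal protein genes 97.2%. Across the 53 genes the Spearman coefficient of mean RPKM with this share was 0.39. With the exon length behind the RPKM it was -0.55, which is in part built in, since RPKM is divided by that length. That length had a median of 1659 bases against 964 bases for the transcript of each gene used here. The transcript was chosen by its annotation as coding, principal and consensus, and by length only among equals. The share thus describes a sequence that can differ from the one counted. Reads of a shared stretch cannot be placed by sequence alone, so that these levels are uncertain, and their order need not be one of mRNA abundance.

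**Figure D3:**
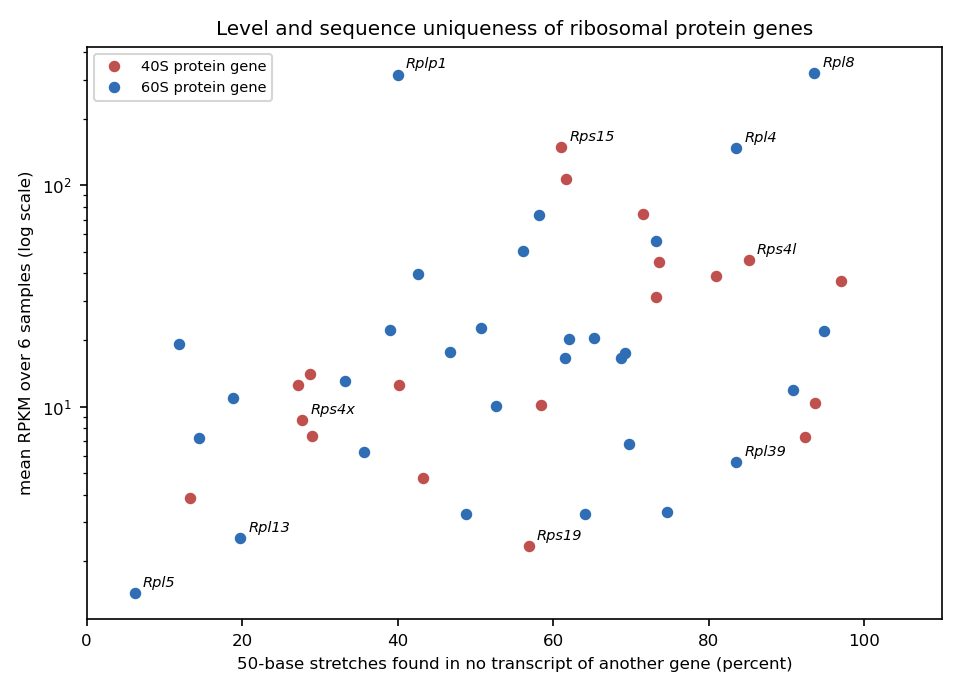
Mean RPKM over 6 samples on a log scale (vertical axis) against the percent of 50-base stretches of the transcript found in no transcript of another gene (horizontal axis) for 49 of the 53 ribosomal protein genes, red for 40S and blue for 60S. *Rpl5* (6.16%) is lowest in both, and *Rpl8* has the highest RPKM.

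The changes went little with these features. Across the 53 genes, the Spearman coefficient of the log2 fold change was 0.05 with the unique share, 0.13 with GC content, 0.26 with exon length and -0.28 with mean RPKM, and without WT a the last was -0.17. Genes share libraries, and these coefficients are descriptions. In the 11 members with at least 80% unique stretches, the median log2 fold change was -0.081, the SD was 0.130 and only *Rps24* was called. Without WT a the median of these 11 was -0.046, the SD 0.0927 and the number called 2. Members whose unified names mark proteins with bacterial counterparts (22 genes) and without them (27 genes) had medians of -0.071 and -0.072.

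By position, the 53 genes lay on 18 chromosomes, with 12 on chromosome 7. The median there was -0.022 against -0.079 on the others, and -0.051 against -0.086 without WT a. Of the 12 genes 1 was called (8.33%, against 23.3% of all genes), and 3 without WT a, where 17.4% of all genes were called. On the other chromosomes 5 members were called in both fits. Members were not compared with the other genes of chromosome 7. *Rpl41* and *Rps26*, which lie 75228 bases apart on chromosome 10, were both called lower, calls kept in 4 and 8 of 14 alternatives. Other neighbouring members went both ways. *Rps10* (0.12) and *Rpl10a* (-0.11), 691801 bases apart on chromosome 17, had opposite signs, and *Rps9* (-0.14) and *Rpl28* (-0.18) on chromosome 7 were both below 0. None of these 4 genes was called, and the part of position was not tested. Of the 53 genes, 21 host a total of 41 snoRNAs.

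The TOP motif was looked for at the annotated starts in the RefSeq promoter table (GRCm38.p6), where 40 of the 53 members were found with 49 starts. A cytosine at the start followed by at least 4 bases that are each C or T, on the strand of the gene, stood at 9 of the 49 starts (18.4%), against 2.51% of 32851 starts of all genes. A run of at least 8 such bases within 10 bases of the start was present at 15 of 49 (30.6%) and at 7.43% of all starts. The median log2 fold change was -0.027 for the 9 members with the first motif and -0.079 for the other 31. None of the 9 and 4 of the 31 were called, where 23.3% of all genes were called. Without WT a these medians were -0.057 and -0.102. The difference between these groups was not tested. A match is a description of the annotated start, which can lie some bases from the start used in the retina. The following 4 starts show long runs of it, with the pyrimidine run from the annotated start in capitals, 12 bases before it and 15 from it on.
*Rpl15* (chr14:18270972-18270998, minus strand): ggagaaagccttCTTCCTTTCCTCTgg
*Rps10* (chr17:27635230-27635256, minus strand): ccgcgcacgcccCTTCCTTTCCagcct
*Rps15a* (chr7:118116133-118116159, minus strand): tctttctgccatCTTCCCTCgccggtg
*Rpl28* (chr7:4792953-4792979, plus strand): cctctcgtgtctCTCTTTCCgtctccg

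Other genes of translation were described in the same way, beside the 23.3% of all genes called and the 14.5% called lower. Of 70 listed (of 78) mitochondrial ribosomal protein genes, 8 were called (11.4%), all lower, with a median log2 fold change of -0.043. The lowest were *Mrpl49*, at 40.6 RPKM in WT and 33.6 in *Mll1KO* on average (-0.27, limma adjusted p = 0.0032), and *Mrps27* (-0.26, limma adjusted p = 0.00261). Of 37 listed (of 38) initiation factor genes, 6 were called lower and 1 higher (18.9% in all), with a median of -0.054, from *Eif3e*, a subunit of eIF3 (-0.27, limma adjusted p = 0.0168), to the helicase gene *Eif4a2* (0.15, limma adjusted p = 0.0363). *Eif3e* lost its call without WT b (limma adjusted p = 0.0682), and *Eif4a2* kept its call in 8 of 14 alternatives, with an adjusted p of 0.0968 without WT a and of up to 0.121. Of 9 elongation factor genes only *Eef1a1*, which delivers aminoacyl-tRNA, was called (11.1%; -0.18, limma adjusted p = 0.00604), and the median was 0.004. Of 23 listed (of 27) other genes with TOP mRNAs, 6 were called (26.1%), all lower, with a median of -0.106, and the lowest was *Vim* (-0.47, limma adjusted p = 8.29e-05), which is also a Muller glia marker.

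Of 61 listed (of 66) ribosome biogenesis genes, 7 were called (11.5%), all lower, with a median of -0.096 and the snoRNP gene *Gar1* (-0.30, limma adjusted p = 0.0117) and the processome gene *Utp14a* (-0.27, limma adjusted p = 0.0172) as the lowest. *Gar1* lost its call without WT b (limma adjusted p = 0.0504), and *Utp14a* without WT b, *Mll1KO* b or *Mll1KO* c (up to 0.0662). Of 18 listed (of 21) genes of mTORC1 and TOP control, 2 were called (11.1%), both lower, with a median of -0.034. They were *Rps6kb1*, the S6 kinase gene (-0.17, limma adjusted p = 0.0339), and *Pdcd4*, an inhibitor of eIF4A (-0.17, limma adjusted p = 0.0123). *Rps6kb1* kept its call in only 4 of 14 alternatives, losing it with TMM, RLE or upper-quartile factors, with a replicate block and without any 1 library (limma adjusted p up to 0.0998), and *Pdcd4* lost its call without WT b (0.0526). Of 15 listed (of 20) genes of p53 and nucleolar stress, 3 were called lower and 1 higher (26.7% in all), with a median of -0.064. The proapoptotic genes *Bbc3* (-0.50, limma adjusted p = 0.00482) and *Bax* (-0.26, limma adjusted p = 0.00197) fell, while the antiproliferative *Btg2* rose (0.23, limma adjusted p = 0.0353). *Btg2* was called in 9 of 14 alternatives, and not without WT a (limma adjusted p = 0.108, the highest), WT b, *Mll1KO* a or *Mll1KO* c nor with a replicate block (0.0676).

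With TMM factors, the mitochondrial, initiation, biogenesis and mTORC1 lists had 5, 3, 4 and 1 genes called, beside 21.3% of all genes, and without WT a 4, 3, 6 and 1, beside 17.4%. Their medians were -0.016, -0.022, -0.067 and -0.003 with TMM factors, where that of all genes was -0.002, and -0.081, -0.065, -0.101 and -0.020 without WT a, where that of all genes was -0.040. Among 5035 genes outside the set with an exon length of at most 3841 bases, 21.4% were called and the median was -0.018.

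Cell type markers moved with genotype beside these genes, where 8.81% of all genes were called higher and 14.5% lower. The summed RPKM of 16 rod genes was 18833, 17791 and 18272 in WT a, b and c and 22526, 23025 and 22234 in *Mll1KO*, with 11 called higher and 1 lower and a median log2 fold change of 0.25. That of 12 cone genes, led by *Guca1a*, was 694, 706 and 762 in WT and 1015, 1122 and 1071 in *Mll1KO* (8 higher, 1 lower, median 0.28), and that of 12 Muller glia genes, led by *Glul*, was 1533, 1520 and 1665 in WT and 1897, 1987 and 1952 in *Mll1KO* (6 higher, 3 lower, median 0.21). The genotypes did not overlap in these sums. *Guca1a* alone, at a mean of 144 RPKM in WT and 421 in *Mll1KO*, made up most of the difference in the cone sum. Among 9 horizontal cell genes, led by *Nefm*, 8 were called, all lower (median -0.50), with sums of 333, 331 and 318 in WT and 225, 224 and 230 in *Mll1KO*. Among 11 ganglion cell genes, led by *Sncg*, 10 were called, all lower (median -0.53, 588, 554 and 580 in WT and 458, 413 and 389 in *Mll1KO*), and among 12 bipolar cell genes 7 were called, all lower (median -0.28, 632, 623 and 611 in WT and 517, 519 and 528 in *Mll1KO*). Of 11 amacrine cell genes 2 were called higher and 4 lower (median -0.05). The part of cell composition in the values of ribosomal protein genes was not tested.

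Some lists of cells outside the neural retina varied among samples of 1 genotype. The 4 listed genes of the retinal pigment epithelium, led by *Ttr*, summed to 202, 101 and 308 RPKM in WT a, b and c and to 87.7, 187 and 91.2 in *Mll1KO*, and 4 blood genes, led by *Hbb-bs*, to 101, 80.9 and 207 in WT and 134, 178 and 212 in *Mll1KO*. For 6 pericyte and fibroblast genes, led by *Rgs5*, the sums were 59.4, 43.2 and 64.0 in WT and 43.3, 41.7 and 45.2 in *Mll1KO*, with 1 called higher and 2 lower. The medians of these 3 lists were -0.56, 0.49 and -0.24. WT a was not the extreme sample in any of these 3 lists, and their part was not tested. Of 8 endothelial genes 2 were called higher and 2 lower (median -0.18), with sums of 92.6, 91.0 and 89.8 in WT and 75.7, 68.2 and 70.2 in *Mll1KO*. Of 4 astrocyte genes 3 were called, all higher (median 0.40), with sums of 13.9, 14.7 and 14.5 in WT and 22.9, 22.5 and 22.7 in *Mll1KO*. The genotypes did not overlap in the endothelial or astrocyte sums. Of 5 genes of dividing progenitors 1 was called, lower (median -0.10). With limma, 0 of 5 microglia, 4 retinal pigment epithelium, 2 lens and 4 blood genes were called, and limma-voom called 0 as well. The medians of the microglia and lens lists were 0.03 and 0.39, and no listed gene of any list was at 0. At an unadjusted p under 0.05 these lists had 1 pigment epithelium and 1 lens gene lower and 1 lens gene higher.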

How the data were processed

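RNA of 3 *Mll1KO* and 3 WT retina samples (RIN of at least 8, mRNA kit, rRNA depletion, random priming) was sequenced as single reads. The authors aligned to the mouse genome (mm10 per the submitters' notes, while the study's methods name the Ensembl build differently) with STAR 2.0.4b, counted with featureCounts 1.45 and removed genes unless 5 or more samples exceeded a CPM of 5. RPKM, as deposited, is the count divided by exon length and library total. Deposited columns of the authors' own comparison (edgeR fold change, mean CPM, p and FDR) were not used.

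The table had 11404 lines for 11339 genes, with 59 gene IDs in several lines. Library totals and lengths that made every gene whole within 0.05 reads were found for 100% of genes. The length was that of the annotation used here for 6048 genes and otherwise the smallest that fitted. For 734 genes more than 1 length fitted, so that their length and reads are uncertain. limma 3.58.1 (R 4.3.3) was run on log2(RPKM + 1) with a variance trend, without other terms, and was tested on simulated data. Alternatives were pseudocounts of 0.1 and 5, TMM, RLE and upper-quartile factors, a mean RPKM filter at 1, limma-voom, the replicate letter as a block and each library left out. Shared 50-base stretches and coordinates came from GENCODE vM21 transcripts. Python 3.11.15 was used.

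Named genes were the called members, the 6 highest and 6 lowest by log2 fold change, the 5 highest and 5 lowest by RPKM, paralogs with their parents, a short set of well-known members, and the 2 highest and 2 lowest called genes of each of 22 lists. Some genes that meet this rule are not reported here, in text or figures, while counts, medians and sums include them. Other members are named where their values were seen first. Members and lists were chosen with earlier results of these data known.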

Additional observations from a re-analysis of the deposited data

How the results depend on the processing

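Over the alternatives, members were called lower only, with 0 called higher by limma or limma-voom in any of them, and the median log2 fold change of the set stayed below 0 and below that of all genes. Among all genes, 37.8% of the 2643 calls were higher in *Mll1KO*, and with TMM, RLE and upper-quartile factors 51.9%, 53.1% and 52.7% of 2420, 2402 and 2412 calls were. These factors left 4 members called (*Rpl29*, *Rplp0* and *Rps24* among them), with a median of -0.042, -0.040 and -0.041 against medians of all genes between -0.002 and 0.0003, and 34 or 35 of the 53 genes below 0. The summed RPKM of *Mll1KO* over WT was 0.965, and 0.989 and 0.988 with RLE and upper-quartile factors, which follows from how these factors are built. The SD of the log2 fold change, 0.117, was 0.0937 with a pseudocount of 5 and 0.132 with limma-voom. With members of at least 80% unique stretches, chosen after seeing the data, 1 member was called of 11 and the SD was 0.130. Without 1 library at a time, 1704 to 2536 of all genes and 3 to 8 members were called, and the SD ranged from 0.0957 to 0.143. The lowest counts came without WT b (1704 genes, 4 members), without *Mll1KO* c (1757 genes, 3 members) and without WT c (3 members), in fits with fewer samples. With a replicate block 2242 genes and 5 members were called. Whether the letters pair the samples was not tested, and deviations from means of 3 libraries cannot decide it. Over all genes the deviations of same-letter libraries a, b and c correlated at -0.039, -0.190 and -0.007 (over the members at 0.301, -0.039 and -0.159). Not every sample correlated best with its own letter. In both genotypes the library total was highest in a and lowest in c. The planned count of stretches unique in the genome was not run. Of 91 named genes, 28 changed their call in at least 1 alternative and 0 called genes changed direction.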
